A study of Mus musculus with 24 samples.

Results

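The laminin genes examined here were Lama1, Lama2, Lama3, Lama4, Lama5, Lamb1, Lamb2, Lamb3 and Lamc1, 9 genes chosen by symbol among the 34519 genes listed both for cultured cells and for tumors. All 9 had a row in both tables. RNA-seq had been done on D2.1 and D2A1 cells, mouse mammary tumor lines that the study uses as models of dormant and of rapidly growing disease, and the question put to these libraries was how the lines differ in culture and in hosts with or without adaptive immunity. Each line was represented by 3 cultured replicates, 4 tumors from immunocompetent BALB/c mice and 5 tumors from SCID-beige mice, which lack T and B cells and have impaired natural killer cells but keep macrophages, vessels and stroma. Tumors grew in the mammary fat pad of female mice after implantation of 1000000 cells per mouse and carried no other labelled treatment. They were collected at a size of about 500 cubic mm, so time in the host may differ between the lines. Such a difference and that of line cannot be told apart in tumors. Host age and days after implantation are not in the sample labels. Each line is one cell line, and nothing says that the 3 cultured libraries of a line came from separate cultures, so p-values measure the spread between these libraries, which for cultured cells may be technical.

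Laminins are the adhesive glycoproteins of basement membranes, the thin sheets of matrix under epithelia and around vessels, muscle, nerve and fat. Each is a trimer of an α, a β and a γ chain that is put together inside the cell before secretion, and the α chain carries the main sites that bind integrins and dystroglycan. Lamc1 encodes the γ chain of most laminins, Lamb1 and Lamb2 the β chains of most, whereas Lama3 and Lamb3 belong to the laminin of epithelial hemidesmosomes. In the mammary gland, laminin from the basement membrane is known for holding epithelial cells in a polarized, quiescent state.

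Between 16837260 and 24818234 reads were counted on genes in the cultured libraries and between 13566949 and 18355153 in the tumors, so that a floor of 3 counts was worth 0.121 to 0.221 CPM (counts scaled to library size), a limit that covers counting error only. Levels of different chains are given as FPKM, fragments scaled to transcript length and library size, recomputed from the counts on 1 length per gene, because the deposited FPKM of cells and tumors rest on different gene lengths (for Lamb2, 5624 and 1180 bases). BALB/c tumor 1 of D2.1 stood apart from the other tumors, with summed levels of 398 CPM for 5 milk protein genes, 569 CPM for 6 adipocyte markers and 390 CPM for 7 skeletal muscle markers, and BALB/c tumor 4 of D2.1 had 154 CPM of 6 skin keratinocyte markers. SCID-beige tumors 4 and 5 of D2.1 also held skeletal muscle transcripts, at 281 and 219.4 CPM. The fits were repeated without each pair of tumors. Epithelial keratin and cadherin markers (6 genes) summed to 2395 to 4236 CPM in cultured D2.1 and 141 to 350.0 CPM in cultured D2A1 cells, and to 353 to 1183 CPM in the tumors.

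Of the 9 chains, Lamb1, Lamc1, Lamb2 and Lama5 were abundant in every group, and Lama4 joined them in tumors. Lamb1 had the highest mean in all 6 groups, from 57.2 ± 5.78 FPKM in cultured D2.1 to 88.7 ± 9.53 FPKM in D2.1 tumors of SCID-beige mice. All means are ± SD of the 3, 4 or 5 libraries of a group. Lamc1 came next in every group except D2.1 tumors of BALB/c mice, where Lama4 (44.8 ± 7.11 FPKM) and Lamc1 (43.9 ± 10.6 FPKM) lay within each other's spread. Lama1, Lama2, Lama3 and Lamb3 were at most 1.16 FPKM in every library, so their values rest on few reads. A step from the abundant to the scarce chains is visible in the plot of levels by library.

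**Figure D1:**
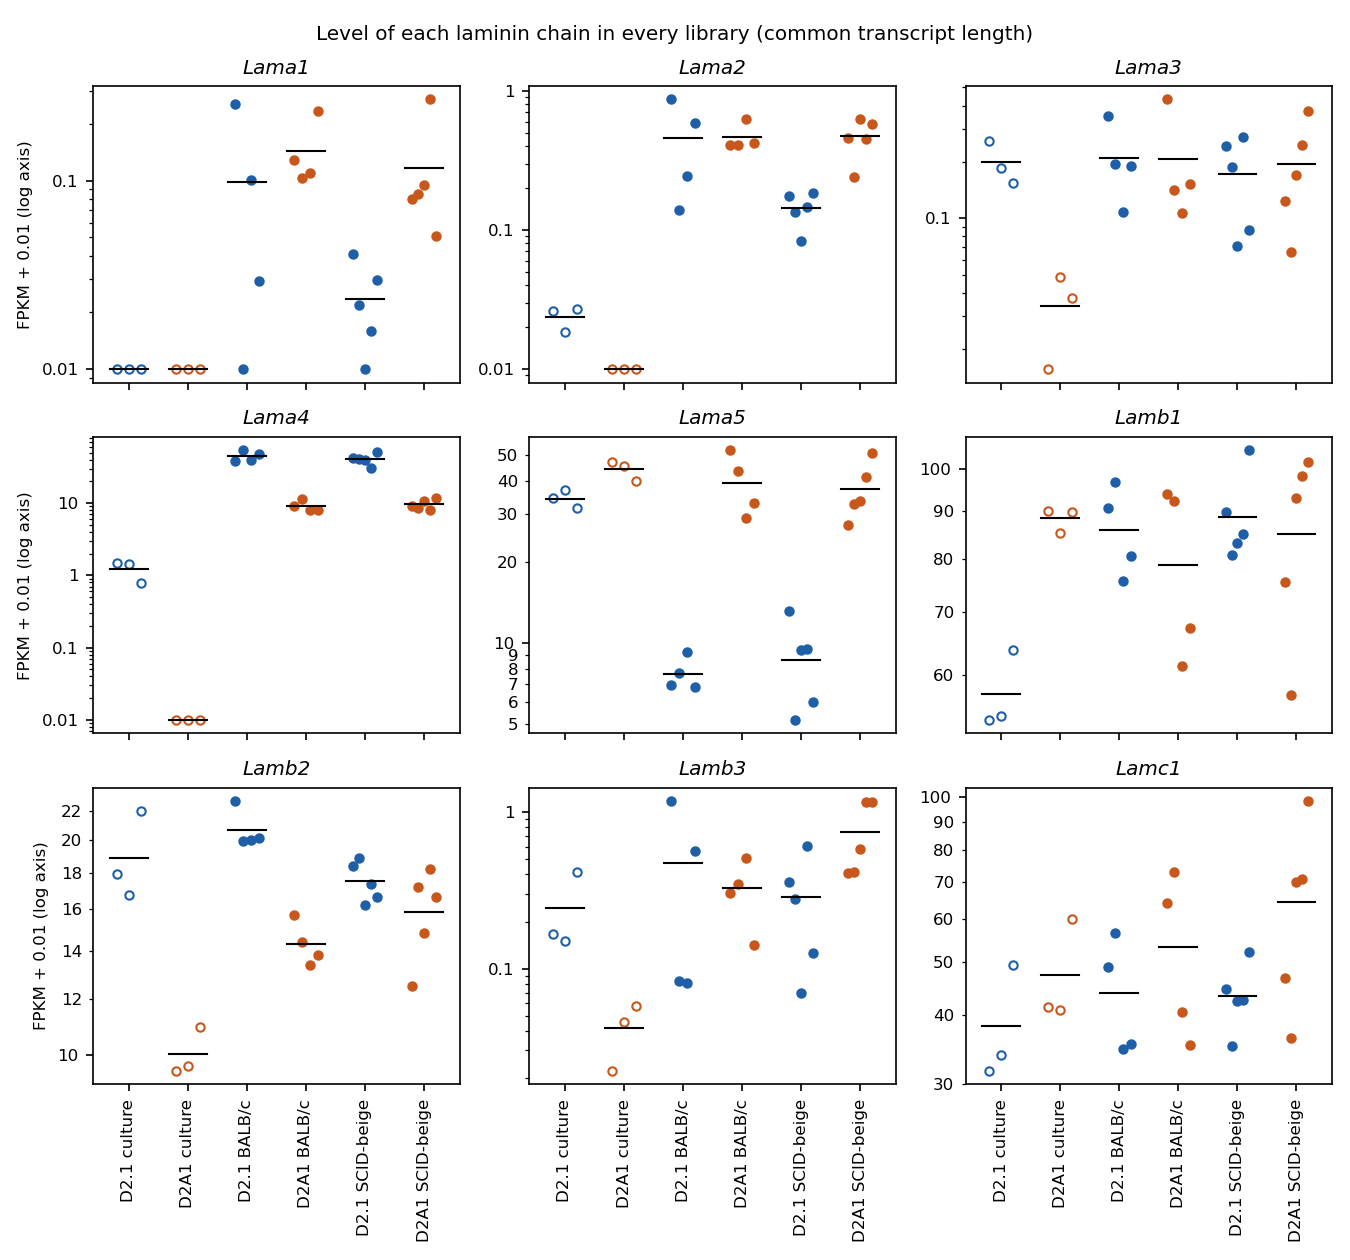
FPKM of each chain (plus 0.01, log axis) in all 24 libraries, computed on the longest protein-coding transcript, with D2.1 in blue, D2A1 in orange, cultured cells as open and tumors as filled circles, and a bar at each group mean. Lama4 of D2.1 tumors lay at 30.6 to 53.6 FPKM, above the 7.98 to 11.7 FPKM of D2A1 tumors, and Lama5 was reversed, at 5.15 to 13.1 against 27.4 to 51.9 FPKM.

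Lama4 encodes the short laminin α chain known from vessels, muscle and fat. The gene (ENSMUSG00000019846) lies on the plus strand at chr10:38965515-39110188 of GRCm38. In cultured D2.1 cells it was at 1.47, 1.43 and 0.769 FPKM, on at least 85 counts each, and in cultured D2A1 cells at 0 counts in all 3 libraries. In D2.1 tumors it was at 38.7, 53.6, 39.3 and 47.6 FPKM in BALB/c and 41.6, 41.3, 40.0, 30.6 and 51.4 FPKM in SCID-beige mice. In D2A1 tumors it was at 9.0, 11.5, 7.98 and 8.08 FPKM in BALB/c and 9.24, 8.59, 10.6, 8.07 and 11.7 FPKM in SCID-beige mice. Every D2.1 tumor thus exceeded every D2A1 tumor, every tumor exceeded every culture, and the BALB/c and SCID-beige values of a line overlapped.

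Lama5 encodes the α chain of the most widespread adult laminins, found under epithelia and in vessel walls. The gene (ENSMUSG00000015647) lies on the minus strand at chr2:180176373-180225859. It was at 34.4, 36.8 and 31.7 FPKM in cultured D2.1 and 46.8, 45.5 and 39.9 FPKM in cultured D2A1 cells. D2.1 tumors had 6.94, 7.68, 9.25 and 6.83 FPKM in BALB/c and 13.1, 5.15, 9.38, 9.44 and 6.01 FPKM in SCID-beige mice. D2A1 tumors had 51.9, 43.3, 29.0 and 33.1 FPKM in BALB/c and 27.4, 32.9, 33.5, 41.3 and 50.6 FPKM in SCID-beige mice. The order of the lines was the opposite of that for Lama4, the highest D2.1 tumor standing below the lowest D2A1 tumor, while D2A1 tumors overlapped with D2A1 culture.

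Because an α chain decides which receptors a laminin binds, the 5 α chains were also given as shares of their summed FPKM in each library. In culture Lama5 made up 99.9% ± 0.0381 of α-chain mRNA in D2A1 and 96.0% ± 1.0 in D2.1 cells. In D2.1 tumors Lama4 took 83.9% ± 3.23 in BALB/c and 81.9% ± 6.62 in SCID-beige hosts, Lama5 keeping 14.6% ± 3.05 and 17.5% ± 6.48. D2A1 tumors kept Lama5 in the lead with 79.4% ± 3.13 in BALB/c and 77.7% ± 3.65 in SCID-beige hosts. The leading chain therefore differed between the lines in tumors and was the same in culture. The sizes depend on the unit, Lama5 in D2.1 tumors having 24.1% and 28.1% by counts and 25.2% and 29.2% with FPKM on exon length, and Lama4 in D2A1 tumors 11.1% and 12.2%, and 10.5% and 11.6%. On the length used here, the summed FPKM of the α chains differed less. It was 53.2 ± 6.55 and 49.9 ± 6.85 in D2.1 tumors of BALB/c and SCID-beige mice. D2A1 tumors had 49.3 ± 11.2 and 47.6 ± 10.0, and the ranges overlapped. The sum also depends on the unit, the Lama4 length being 6046 bases against 12068 bases of exons, and that of Lama5 11388 for both. In CPM, which uses no length, Lama4 had 185 to 324 in D2.1 tumors and Lama5 312 to 591 in D2A1 tumors. Near-equal sums are therefore shown for this length only. Shares are a description with no test.

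**Figure D2:**
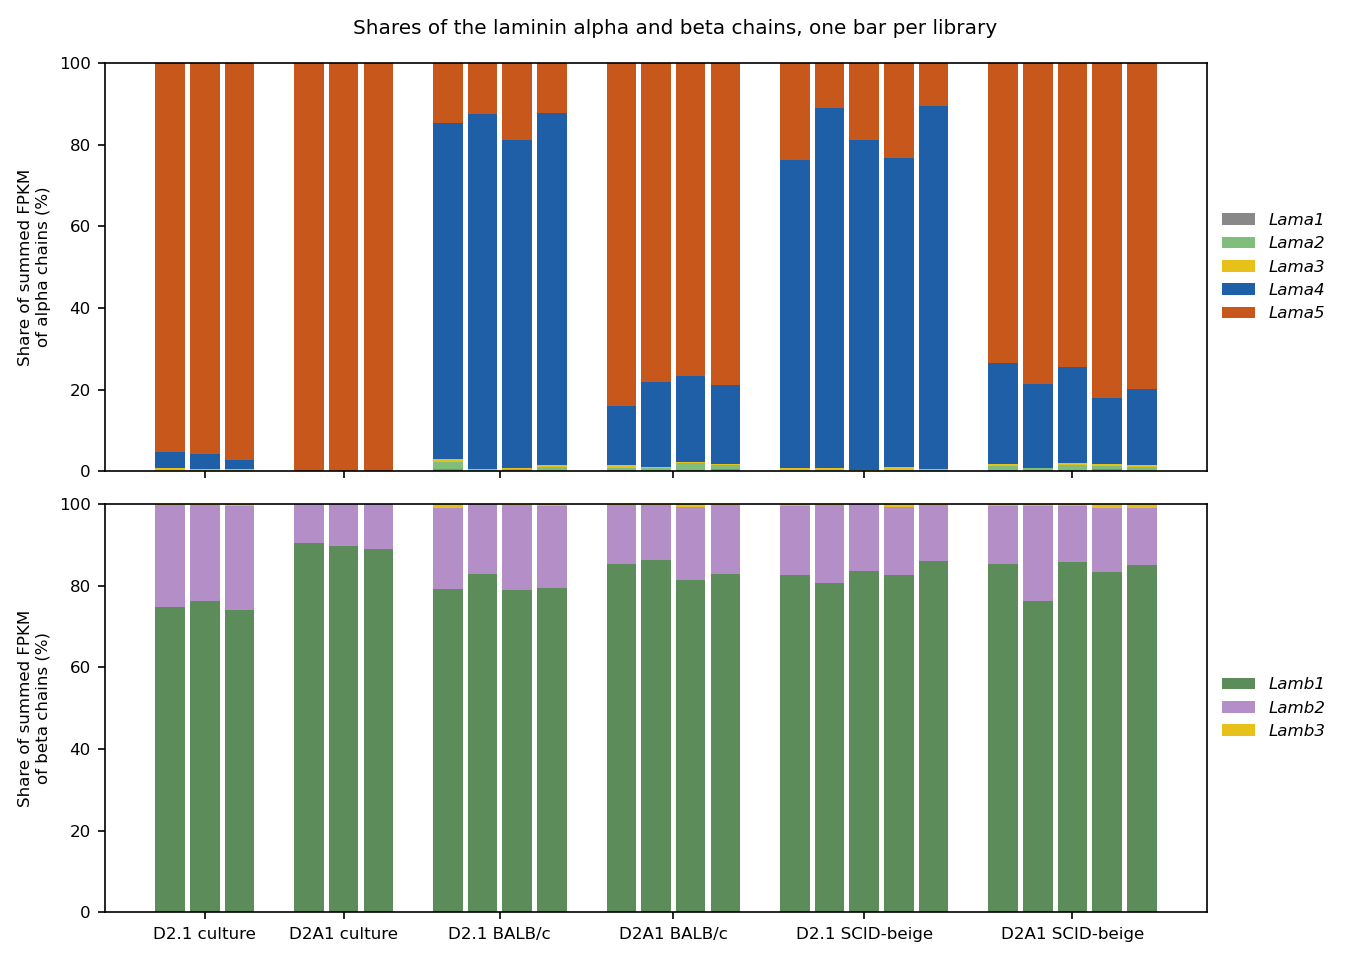
Stacked share (%) of each α chain (upper panel) and each β chain (lower panel) in the summed FPKM of its class, 1 bar per library, grouped by line and setting. Lama4 held 75.4% to 89.1% of the α chains in D2.1 tumors and 14.6% to 24.8% in D2A1 tumors, and Lamb1 led the β chains in every library.

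The remaining α chains were scarce. Lama1, the chain of embryonic laminin, had 0 counts in all 6 cultures. In tumors Lama1 had 43, 0, 15 and 3 counts in D2.1 and 18, 14, 16 and 37 counts in D2A1 of BALB/c mice, and 5, 2, 0, 1 and 3 counts in D2.1 and 10, 11, 11, 38 and 6 counts in D2A1 of SCID-beige mice. Lama2, the chain of muscle and peripheral nerve basement membranes, had 3, 2 and 3 counts in D2.1 and 0 counts in all D2A1 cultures. In tumors Lama2 had 151, 21, 39 and 90 counts in D2.1 and 61, 60, 100 and 68 counts in D2A1 of BALB/c mice, and 27, 21, 12, 23 and 27 counts in D2.1 and 64, 34, 81, 65 and 84 counts in D2A1 of SCID-beige mice. In SCID-beige mice the D2.1 tumors were all below the D2A1 tumors in Lama2, and in BALB/c mice the lines overlapped, the highest value being that of D2.1 tumor 1. Exons of Lama2 overlap over 631 bases with those of Gm48084 on the other strand, and exons of Lama3 over 197 bases with Gm29200, and since the strand setting of the counting is not known, reads there cannot be assigned with certainty.

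Lama3, the α chain of hemidesmosomal laminin, had 51, 46 and 28 counts in D2.1 and 1, 7 and 5 counts in D2A1 cultures. Its tumors ranged from 18 to 66 counts in D2.1 and 17 to 71 in D2A1 of BALB/c mice and from 11 to 48 and 9 to 59 in SCID-beige mice, with full overlap of the lines. Lamb3, the β chain of the same trimer, had 15, 17 and 36 counts in D2.1 and 1, 3 and 4 counts in D2A1 cultures. Both genes were thus higher in every D2.1 than in every D2A1 culture. In tumors Lamb3 had 104, 6, 6 and 44 counts in D2.1 and 23, 26, 41 and 11 counts in D2A1 of BALB/c mice, and 29, 23, 5, 51 and 9 counts in D2.1 and 29, 30, 38, 86 and 86 counts in D2A1 of SCID-beige mice. The highest D2.1 value was again that of BALB/c tumor 1.

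Among the β chains, Lamb1 is the partner of Lama4 and Lama5 in most tissues and Lamb2 the β chain of vessel, kidney and neuromuscular basement membranes. Lamb1 (ENSMUSG00000002900, chr12:31265234-31329644, plus strand) was at 53.6, 54.1 and 63.8 FPKM in D2.1 and 90.1, 85.3 and 89.9 FPKM in D2A1 cultures. Its tumors had 90.7, 96.8, 75.6 and 80.6 FPKM in D2.1 and 93.9, 92.2, 61.3 and 67.3 FPKM in D2A1 of BALB/c mice, and 89.8, 80.7, 83.2, 85.1 and 105 FPKM in D2.1 and 75.4, 57.0, 93.1, 98.2 and 102 FPKM in D2A1 of SCID-beige mice. The lines were separate in culture, with D2.1 lower, and overlapped in both kinds of tumor. Lamb2 (ENSMUSG00000052911, chr9:108479736-108490530, plus strand) was at 17.9, 16.7 and 22 FPKM in D2.1 and 9.50, 9.66 and 10.9 FPKM in D2A1 cultures. Its tumors had 22.7, 20.0, 20.0 and 20.1 FPKM in D2.1 and 15.7, 14.4, 13.4 and 13.8 FPKM in D2A1 of BALB/c mice, and 18.4, 18.9, 16.2, 17.3 and 16.7 FPKM in D2.1 and 12.5, 17.2, 14.8, 18.2 and 16.6 FPKM in D2A1 of SCID-beige mice. D2.1 libraries lay above all D2A1 libraries in culture and in BALB/c tumors, and the lines overlapped in SCID-beige tumors. As a share of β-chain FPKM, Lamb2 made up 24.7% ± 0.990 in D2.1 and 10.2% ± 0.656 in D2A1 cultures and between 13.5% and 23.1% in the tumors, with Lamb1 holding nearly all of the rest.

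Lamc1 (ENSMUSG00000026478, chr1:153218922-153332786, minus strand) was at 31.7, 33.8 and 49.5 FPKM in D2.1 and 41.4, 41.0 and 59.9 FPKM in D2A1 cultures. Its tumors had 48.9, 56.4, 34.8 and 35.4 FPKM in D2.1 and 64.0, 72.8, 40.6 and 35.4 FPKM in D2A1 of BALB/c mice, and 44.6, 35.2, 42.5, 42.7 and 52.1 FPKM in D2.1 and 46.8, 36.4, 70.1, 70.8 and 98.1 FPKM in D2A1 of SCID-beige mice. The lines overlapped in each setting, although in culture D2.1 was below D2A1 at each replicate number. Per FPKM of Lamc1, the summed α chains came to 0.978 ± 0.276 and 0.969 ± 0.263 in D2.1 and D2A1 cultures. Culture 3 of each line stood apart, at 0.660 and 0.665 against 1.11 to 1.14 in the other cultures. The summed β chains came to 2.03 ± 0.265 and 2.14 ± 0.394, so that β-chain mRNA exceeded Lamc1 mRNA in all 6 cultures. In tumors the β chains came to 1.22 to 2.86 times Lamc1 on this length. The lowest ratio, in SCID-beige tumor 5 of D2A1, depends on the unit. By counts this tumor had 9067 for Lamb1, 1443 for Lamb2 and 86 for Lamb3, together fewer than the 11536 for Lamc1.

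Regulatory sequence is shown for Lama5 and Lamb1, the α and β chains with the highest level in cultured cells. RefSeq windows of 300 bases around the gene start (build GRCm38.p6) were at hand for 5 of the 9 genes, and the part upstream of any annotated exon is printed 5′ to 3′ on the gene's strand, for Lama5 from chr2:180225905-180226109 (minus strand) and for Lamb1 from chr12:31265043-31265145 (plus strand). Capitals mark GGGCGG, the core of the GC box bound by Sp-family factors, or CCGCCC, the same motif on the other strand.
Lama5: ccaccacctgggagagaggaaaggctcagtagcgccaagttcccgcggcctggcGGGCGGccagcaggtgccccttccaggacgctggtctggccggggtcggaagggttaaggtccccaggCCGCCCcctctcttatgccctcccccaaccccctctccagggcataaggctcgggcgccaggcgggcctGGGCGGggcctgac
Lamb1: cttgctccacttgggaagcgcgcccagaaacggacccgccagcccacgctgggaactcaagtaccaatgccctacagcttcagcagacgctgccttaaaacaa
The printed Lama5 stretch held 3 matches and its full window 4, the Lamb1 stretch 0 and its full window 2, and 35.7% of all 32851 windows held at least 1. TATAAA, searched on both strands, was in neither window and in 13.6% of all. A match is a run of letters and was not tested as a binding site.

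In culture the lines differed in most laminin chains that could be tested. Genes were called with edgeR's quasi-likelihood test at a Benjamini-Hochberg adjusted p under 0.05 over all genes tested, and differences are log2 fold changes ± SE of D2.1 against D2A1. Of 7 chains tested, 5 were called, 4 higher and 1 lower in D2.1, where 44.9% of all 12489 genes tested were called. With D2A1 put at the floor of 3 counts per library, D2.1 had at least 46.8-fold higher Lama4. Lama3 was higher by 3.09 ± 0.54 (adjusted p = 0.00179), Lamb3 by 2.91 ± 0.63 (adjusted p = 0.00535) and Lamb2 by 1.04 ± 0.12 (adjusted p = 1.51e-04). Lamb1 was lower, with a difference of -0.50 ± 0.12 (adjusted p = 0.00869), and without D2A1 culture 1 this call was lost (adjusted p = 0.0511). Lama5 (-0.23 ± 0.15, adjusted p = 0.263) and Lamc1 (-0.18 ± 0.19, adjusted p = 0.464) did not pass. With the replicate number as a block, Lama5 passed (-0.23 ± 0.09, adjusted p = 0.0444), and with the GC offset added Lamc1 did too (-0.23 ± 0.09, adjusted p = 0.0341). The fibroblast markers (6 genes) summed to 1707 to 2674 CPM in D2.1 and 83.4 to 101 CPM in D2A1 cultures. Nearly all of this was Col1a1 (1654 to 2597 CPM in D2.1) and Pdgfra, while Dpt, Dcn, Lum and Pi16 had 0 to 8 counts in every culture, and the part of these markers in these differences was not tested.

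Among tumors, Lama4 and Lama5 had the largest called differences between lines. In BALB/c mice 3 of 9 chains were called, 2 higher and 1 lower in D2.1, where 32.6% of 14953 genes were called. Lama4 was higher by 2.37 ± 0.18 (adjusted p = 8.86e-06) and Lama5 lower at -2.28 ± 0.19 (adjusted p = 1.57e-05). Lamb2 was higher by 0.60 ± 0.12 (adjusted p = 0.00402). This Lamb2 call was lost without BALB/c tumors 1 and 4 of D2.1 (0.54 ± 0.17, adjusted p = 0.0539) and with an offset for the GC content of genes alone (0.43 ± 0.15, adjusted p = 0.0506), and it held with that offset and the replicate block together (0.42 ± 0.10, adjusted p = 0.00495). Lama1, Lama2, Lama3, Lamb1, Lamb3 and Lamc1 did not pass, with differences between -0.52 and 0.61, and without those tumors Lama1 went from -0.52 to -1.51, Lama2 turned from 0.04 to -1.29 and Lamb3 from 0.61 to -2.07.

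In SCID-beige mice the same comparison called 3 of 8 chains, 1 higher and 2 lower in D2.1, where 32.1% of 14355 genes were called. Lama4 was higher by 2.14 ± 0.16 (adjusted p = 5.96e-07), Lama5 lower at -2.05 ± 0.25 (adjusted p = 3.42e-05) and Lama2 lower at -1.70 ± 0.37 (adjusted p = 0.00294). Lamb1 (0.13 ± 0.16, adjusted p = 0.577), Lamb2 (0.20 ± 0.14, adjusted p = 0.302), Lama3 (-0.12 ± 0.54, adjusted p = 0.893), Lamb3 (-1.31 ± 0.56, adjusted p = 0.0910) and Lamc1 (-0.50 ± 0.21, adjusted p = 0.0925) did not pass. Lamb3 passed without D2.1 tumor 4 (adjusted p = 0.0218) and Lamc1 without D2A1 tumor 2 (adjusted p = 0.0173), both lower in D2.1. Without SCID-beige tumors 4 and 5 of D2.1, the same 3 chains were called. The Lama4 and Lama5 differences in both hosts kept their direction and passed in every alternative fit, Lama4 between 2.05 and 2.50 and Lama5 between -2.50 and -1.93.

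**Figure D3:**
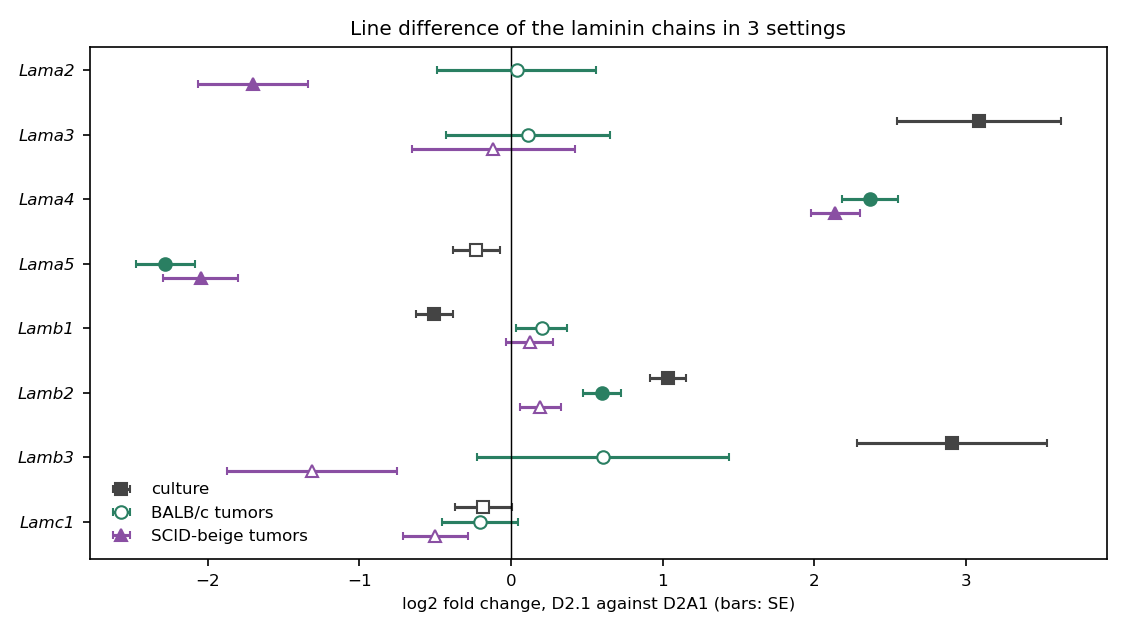
log2 fold change of D2.1 against D2A1 (horizontal axis, bars give the SE) for 8 chains in culture (squares), BALB/c tumors (circles) and SCID-beige tumors (triangles), filled where the adjusted p was under 0.05. Lama4 in culture, where D2A1 had 0 counts, Lama2 in culture and Lama1 are not drawn. Lama4 and Lama5 lay more than 2 log2 units from 0 on opposite sides in both hosts.

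Bulk tumors mix tumor cells with host cells, and fewer cells of a type and less RNA per cell cannot be told apart in them. The 6 endothelial markers (Pecam1, Cdh5, Kdr, Tek, Emcn and Cldn5) summed to 79.0 to 131 and 51.6 to 89.3 CPM in D2.1 and to 209 to 274 and 203 to 275 CPM in D2A1 tumors of BALB/c and SCID-beige mice. They ran opposite to Lama4, with 4 of 6 lower in D2.1 in BALB/c and 5 of 6 in SCID-beige mice. The 6 fibroblast markers (Pdgfra, Dpt, Dcn, Lum, Pi16 and Col1a1) ran with Lama4, summing to 4594 to 7592 and 3293 to 6606 CPM in D2.1 and 949 to 1846 and 764 to 2016 CPM in D2A1 tumors, 6 of 6 and 5 of 6 of them higher in D2.1. Most of each sum was Col1a1, at 3774 to 6566 and 2422 to 5314 CPM in D2.1 tumors. Col1a1 and Pdgfra were also higher in cultured D2.1 than in cultured D2A1 cells, so these 2 do not mark host cells alone. Col1a1 had 1654 to 2597 against 71.6 to 96.4 CPM and Pdgfra 53.1 to 77.4 against 4.87 to 11.7 CPM. The 7 skeletal muscle markers summed to 48.7 to 390 CPM and 1.69 to 281 CPM in D2.1 and to 8.81 to 78.1 CPM and 3.11 to 20.3 CPM in D2A1 tumors of BALB/c and SCID-beige mice, with 2 called higher in D2.1 and 0 lower in each host. No pericyte or smooth muscle marker of 6 was called higher in D2.1, with 1 lower in BALB/c and 2 in SCID-beige mice. No adipocyte marker was called. Of all genes tested, 16.8% were higher and 15.8% lower in D2.1 in BALB/c and 17.2% and 14.8% in SCID-beige mice. The part of these cell types in the Lama4 and Lama5 differences was not tested. In culture the endothelial markers summed to at most 0.716 CPM. Cultured D2.1 cells had 8.89, 8.66 and 4.65 CPM of Lama4, against 185 to 324 CPM in D2.1 tumors. Which cells gave the Lama4 of the tumors was not tested.

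The hosts were compared within each line to ask whether laminin mRNA changes with the host. They differ in natural killer cells and mouse stock as well as in T and B cells. A part of adaptive immunity alone therefore cannot be told apart. No chain passed, 0 of 8 tested in D2.1 and 0 of 9 in D2A1 tumors, where 0.891% of 14929 genes (0.871% higher and 0.0201% lower in BALB/c mice) and 1.17% of 14572 genes (0.906% higher and 0.261% lower) were called by edgeR. At an unadjusted p under 0.05 there was 1 chain in each line. In D2.1 it was Lama2, with 1.74 ± 0.54 (adjusted p = 0.205) for BALB/c against SCID-beige. DESeq2 called Lama2 (log2 fold change 1.73, adjusted p = 0.0408) and no other chain, and without BALB/c tumors 1 and 4 the difference was 0.43 ± 0.57, adjusted p = 0.999. In D2A1 it was Lamb3, with -1.21 ± 0.47 (adjusted p = 0.360), and DESeq2 called 0 chains. For the main chains the host differences were small beside their errors, Lama4 at 0.15 ± 0.17 in D2.1 and -0.11 ± 0.16 in D2A1 and Lama5 at -0.16 ± 0.25 and 0.05 ± 0.20. The test of the line difference between hosts called 0 of 9 chains, where 0.0187% of 16036 genes were called, with 2 chains (Lama2 and Lamb2) at an unadjusted p under 0.05 and 0 by DESeq2. Without BALB/c tumors 1 and 4 of D2.1, that change went from 1.73 ± 0.62 to 0.43 ± 0.56 for Lama2 and from 0.40 ± 0.17 to 0.35 ± 0.21 for Lamb2.

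Tumors of SCID-beige mice were also compared with cultured cells of the same line. Cells and tumors were deposited in separate tables that list different genes, and any difference in handling between them and the change from culture to tumor cannot be told apart. In D2.1, 4 of 8 chains were called, 3 higher and 1 lower in tumors, where 53.1% of 14111 genes were called, 30.8% higher and 22.3% lower. Lama4 was higher by 4.90 ± 0.31 (adjusted p = 5.14e-07), Lama2 at least 8.09-fold higher and Lamb1 higher by 0.50 ± 0.15 (adjusted p = 0.0144), whereas Lama5 was lower at -2.14 ± 0.27 (adjusted p = 7.81e-05). The Lamb1 call was lost without D2.1 culture 1 or 2, with the GC offset (0.30 ± 0.15, adjusted p = 0.106) and with the replicate block. Lamb2 (-0.24 ± 0.13, adjusted p = 0.152) and Lamc1 (0.05 ± 0.17, adjusted p = 0.820) did not pass, although Lamb2 passed as lower with the GC offset (-0.63 ± 0.12, adjusted p = 0.00103).

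In D2A1, 6 of 9 chains were called, all higher in tumors, where 58.1% of 13869 genes were called. Lama4 was at least 313-fold, Lama2 at least 23.6-fold and Lama1 at least 5.39-fold higher, the cultures being at 0 counts. Lama3 was higher by 2.81 ± 0.73 (adjusted p = 0.00628), Lamb3 by 4.36 ± 0.63 (adjusted p = 1.35e-04) and Lamb2 by 0.57 ± 0.16 (adjusted p = 0.00841). Lama5 (-0.34 ± 0.19, adjusted p = 0.137) and Lamb1 (-0.15 ± 0.18, adjusted p = 0.470) did not pass. With the replicate block, an alternative fit, both passed as lower in tumors, Lama5 at -0.56 ± 0.13, adjusted p = 0.00157 and Lamb1 at -0.32 ± 0.13, adjusted p = 0.0441. No label links a tumor with the culture of the same number. With block and GC offset together, Lamb2 lost its call and turned (-0.13 ± 0.13, adjusted p = 0.370), Lama3 lost it (1.85 ± 0.78, adjusted p = 0.0536), and Lama5 (-1.21 ± 0.13, adjusted p = 7.80e-06), Lamb1 (-0.66 ± 0.13, adjusted p = 8.81e-04) and Lamc1 (-0.36 ± 0.12, adjusted p = 0.0177) were lower. All 6 endothelial and all 6 fibroblast markers were higher in tumors than in culture in both lines, which moved with the rises of Lama2 and Lama4, and their part was not tested. Of all genes, 30.8% were called higher in tumors in D2.1 and 33.6% in D2A1.

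Whether the line difference changed between culture and SCID-beige tumors was tested in 1 fit of the 4 groups. The test called 6 chains, all towards lower values of D2.1 relative to D2A1 in tumors, where 12.8% of 15077 genes were called, 8.18% in that direction and 4.62% in the other. The change was -1.81 ± 0.36 (adjusted p = 0.00188) for Lama5, -0.83 ± 0.20 (adjusted p = 0.00773) for Lamb2, -4.21 ± 1.0 (adjusted p = 0.00811) for Lamb3 and -3.19 ± 0.92 (adjusted p = 0.0272) for Lama3. The Lama3 call was lost without any 1 of 4 cultures, D2.1 culture 1 or 2 or D2A1 culture 1 or 3 (adjusted p up to 0.0918). Lama2 and Lama4 were called as well, but their fitted sizes are not estimates of a fold because D2A1 cultures had 0 counts of both. For Lama2 all 6 cultures were at or under 3 counts, so there was no measurable difference in culture for it to change from. Lama4 was called although D2.1 was higher in both settings. Lamb1 (0.64 ± 0.22, adjusted p = 0.0666) did not pass and did so with DESeq2 (adjusted p = 0.0233), with the replicate block (0.0263) and with the GC offset (0.0377). Lamc1 (-0.31 ± 0.33, adjusted p = 0.631) did not pass, and Lama1 had no estimate, all 6 cultures being at 0.

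Within groups, tumors with more Lamb1 had more Lamc1. Over the 18 tumors, each taken as log2 CPM minus its group mean, Pearson's r was 0.933 and Spearman's rho 0.938, and r was 0.934 without the 2 tumors farthest from the median of Lamb1. Among 10860 protein-coding genes with a mean of at least 5 CPM, Lamc1 had the highest r with Lamb1, followed by Glis3 (0.930) and Kalrn (0.927). Lamb1 was only the 16th gene for Lamc1, after R3hdm1 (0.961), Foxo3 (0.953) and Gpam (0.950). The tumors differ in how strongly counts rise with GC content, and the slope of log2 CPM on GC content had r of -0.734 with Lamb1 and -0.811 with Lamc1. With the GC trend of each library taken off, these became -0.859 and -0.871, so both genes still moved with the slope. The r between Lamb1 and Lamc1 was then 0.962, Lamc1 was again first for Lamb1, and Lamb1 was the 2nd gene for Lamc1. These correlations are a description across tumors of 4 groups, with no test.

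**Figure D4:**
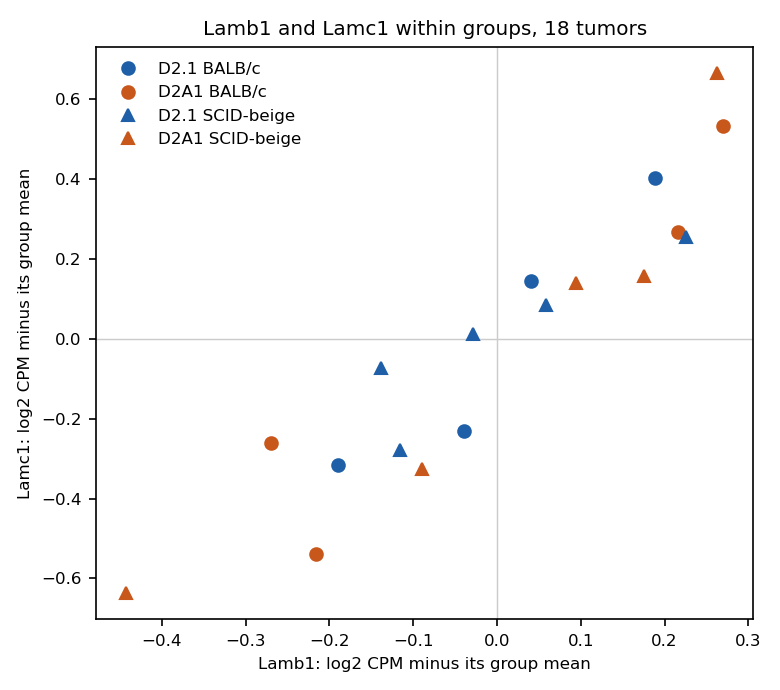
log2 CPM of Lamb1 (horizontal axis) and Lamc1 (vertical axis) in 18 tumors, each minus the mean of its group, with circles for BALB/c, triangles for SCID-beige, blue for D2.1 and orange for D2A1. The tumors fall along a rising line (r = 0.933).

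The other main chains had other neighbours. The genes most like Lama4 included Cyp39a1 (r = 0.905) and Kif5c (0.821), Lama5 was most like Icmt (0.810), D10Wsu102e (0.788) and Lrp8 (0.778), and Lamb2 was most like Hnrnpa0 (0.793), Cyp2d22 (0.719) and Mical1 (0.702). Lama4 and Lama5, which differed in opposite directions between the lines, had an r of -0.039 within groups. The scarce chains Lama2 and Lamb3 had an r of 0.771, with BALB/c tumors 1 and 4 of D2.1 high in both, and an r of 0.480 over the 16 tumors without these.

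The other genes of the system were read as lists. Of 10 laminin receptors, 5 were higher and 3 lower in D2.1 cultures, 3 higher and 2 lower in BALB/c tumors, and 4 higher and 4 lower in SCID-beige tumors, with medians of 0.57, 0.15 and 0.46 against -0.02, -0.02 and 0.02 for all genes tested. Of all genes, 44.9%, 32.6% and 32.1% were called in these comparisons, as given with the chains. Itga7, an integrin subunit specific for laminin, had 184 ± 35.0 CPM in D2.1 and 12.4 ± 2.96 CPM in D2A1 cultures and was higher in D2.1 by 4.0 ± 0.22, adjusted p = 2.65e-06. It was also higher in D2.1 tumors, by 3.02 ± 0.17, adjusted p = 1.02e-06 in BALB/c and 3.06 ± 0.18, adjusted p = 5.34e-08 in SCID-beige mice. Itga3, the α subunit of a receptor that prefers laminins with Lama3 or Lama5 chains, was lower in D2.1 tumors, at -2.74 ± 0.20, adjusted p = 7.17e-06 in BALB/c and -2.52 ± 0.22, adjusted p = 1.97e-06 in SCID-beige mice. No receptor was called between hosts in either line (0 of 10 in each, with 4 and 3 at an unadjusted p under 0.05 by edgeR). Of all genes, only 0.891% in D2.1 and 1.17% in D2A1 were called there.

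Between SCID-beige tumors and culture, 5 receptors were higher and 2 lower in D2.1, and 6 higher and 2 lower in D2A1 tumors. Of all genes, 30.8% were higher and 22.3% lower in D2.1, and 33.6% and 24.5% in D2A1 tumors. Itgb4, the β subunit of the hemidesmosomal integrin, was higher in tumors of both lines, by 3.73 ± 0.22, adjusted p = 3.35e-07 in D2.1 and 5.66 ± 0.31, adjusted p = 1.05e-07 in D2A1. Itga3 was lower in D2.1 tumors than in D2.1 cultures (-2.74 ± 0.25, adjusted p = 7.08e-06). Of the 6 hemidesmosome genes, which share Itga6 and Itgb4 with the receptor list, 2 were higher in D2.1 tumors of BALB/c and 3 in SCID-beige mice and 0 lower. Of all genes, 16.8% and 17.2% were higher and 15.8% and 14.8% lower. The named ones were Plec, the linker to intermediate filaments, in BALB/c mice (0.77 ± 0.23, adjusted p = 0.0239), and in SCID-beige mice Itgb4 (0.98 ± 0.18, adjusted p = 8.34e-04) and Itga6 (1.30 ± 0.37, adjusted p = 0.0146). Itga6 was at 209 CPM in SCID-beige tumor 3 of D2.1 and 46.3 to 94.3 CPM in the others of D2.1. The D2A1 tumors had 27.7 to 61.6 CPM, so the lines overlapped, and no fit left out that tumor for Itga6. In culture 3 of the 5 hemidesmosome genes tested were higher and 2 lower in D2.1, where 24.2% of all genes were higher and 20.7% lower. Itgb4 was higher by 2.93 ± 0.29 (adjusted p = 7.52e-05) and Itga6 lower at -1.49 ± 0.18 (adjusted p = 2.78e-04).

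Of 10 basement membrane partners, 2 were higher and 4 lower among the 8 tested in D2.1 cultures, where 24.2% of all genes were higher and 20.7% lower. Col18a1, a collagen of basement membranes, had 669 ± 164 CPM in D2.1 and 30.6 ± 5.10 CPM in D2A1 cultures and was higher in D2.1 by 4.56 ± 0.22 (adjusted p = 1.46e-06). In tumors 3 partners were higher and 5 lower in D2.1 of BALB/c and 2 higher and 5 lower in SCID-beige mice, with medians of -0.56 and -1.0 against -0.02 and 0.02 for all genes. Of all genes, 16.8% and 17.2% were higher and 15.8% and 14.8% lower. Col4a1 and Col4a2, the type IV collagen chains of most basement membranes, had 0.214 ± 0.110 and 0.302 ± 0.149 CPM in D2.1 against 589.7 ± 160.5 and 522 ± 138 CPM in D2A1 cultures. Both were lower in D2.1 tumors too, Col4a1 at -1.89 ± 0.24, adjusted p = 2.42e-04 in BALB/c and -3.01 ± 0.27, adjusted p = 2.04e-06 in SCID-beige mice and Col4a2 at -2.25 ± 0.17, adjusted p = 8.86e-06 and -3.33 ± 0.22, adjusted p = 2.07e-07. Nid2, a nidogen that links laminin to type IV collagen through the Lamc1 chain, was lower as well, at -2.74 ± 0.41, adjusted p = 6.36e-04 in BALB/c and -3.11 ± 0.57, adjusted p = 9.01e-04 in SCID-beige mice. No partner was called between hosts (0 of 9 in D2.1 and 0 of 10 in D2A1, with 2 and 3 at an unadjusted p under 0.05 by edgeR), where 0.891% and 1.17% of all genes were called. Against culture, 6 partners were higher in D2.1 tumors and 0 lower, and 6 were higher and 1 lower in D2A1 tumors. Of all genes, 30.8% were higher and 22.3% lower in D2.1, and 33.6% and 24.5% in D2A1 tumors.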

How the data were processed

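Counts and FPKM of 24 libraries were used. The authors deposited raw read counts per gene, and their FPKM equals count over gene length and library total in 100% of genes with counts (relative tolerance 0.0001). The submitters' processing notes name STAR and mm10. The counting program, annotation and strand setting are not given in the sources used here. Ensembl identifiers were looked up in GENCODE M21 (GRCm38), and FPKM was recomputed on the longest protein-coding transcript, because the lengths behind the deposited FPKM differ between cells and tumors.

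Calls came from edgeR 4.0.16 in R 4.3.3 (TMM, default expression filter by group, robust quasi-likelihood test, Benjamini-Hochberg adjusted p under 0.05 over all genes tested), with only the groups compared in each fit and 4 groups for the interactions. SE is the size of the log2 fold change over the square root of F. Folds against groups with at most 3 counts in every library are bounds against 3 counts per library. On simulated data with 200 changed genes, edgeR recovered 98% to 100% among 12426 to 15511 genes over the 9 comparisons, with at most 6.10% false calls, and DESeq2 at least 99% among 15337 to 21347 genes, with at most 12.4%. The changed genes were all well counted, with a fixed size of change and a common dispersion. These rates therefore do not cover the scarce chains or the spread between the real replicates. All 38 replicate pairs within groups differed by more than sampling noise (chi-square per degree of freedom 4.96 to 117). Python 3.11.15, pandas 2.3.3 and matplotlib 3.10.9 were used for tables and figures.

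The members and lists were chosen with earlier results of these data known. All 9 members are reported, and of each other list at most 3 called genes per comparison with the largest change and at least 5 CPM in the higher group. The genes most like a member are the 3 with the highest r over 18 tumors. Some results under these rules are not reported here.

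Libraries of different groups share replicate numbers in the labels. The correlation across genes of same-numbered libraries' deviations from group means was over 0.1 for every pair in culture (0.184 to 0.491), in BALB/c tumors (0.100 to 0.491) and between D2A1 tumors and culture (0.131 to 0.273). Replicate 1 still correlated more with another number, at 0.357 against 0.332, 0.176 against 0.100 and 0.198 against 0.131. So did replicates 3 and 4 of BALB/c tumors, while replicate 2 of BALB/c tumors and replicates 2 and 3 elsewhere correlated most with their own number. The clearest case was D2.1 culture 3, with 0.491 for D2A1 culture 3 and at most -0.356 for the other D2A1 cultures. The numbers thus do not establish pairs throughout, and no label gives a shared day or batch. The main fits used no block. Alternatives were DESeq2 1.42.0, its size factors in edgeR, no filter on low counts, the replicate block, 1 fit of all tumors and each library left out. Chosen after seeing the data were a GC offset (also with the block), leaving out BALB/c tumors 1 and 4 or SCID-beige tumors 4 and 5 of D2.1, and other gene lengths. Protein sequences were not used here.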

Additional observations from a re-analysis of the deposited data

Results flagged for a closer look

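Of 36 sets of values (9 chains in 4 groups of tumors), 4 held a library set apart from the others of its group by a gap that chance gives in about 1 in 20 sets. Lama1 was at 0.260 FPKM in SCID-beige tumor 4 of D2A1 and at 0.0408 to 0.0851 in the other tumors. Lama2 was at 0.620 FPKM in BALB/c tumor 3 of D2A1 against 0.395 to 0.410 in the others. Lama3 was at 0.421 FPKM in BALB/c tumor 1 of D2A1 against 0.0960 to 0.143. Lamb2 was at 22.7 FPKM in BALB/c tumor 1 of D2.1 against 20.0 to 20.1, in the tumor that also had the milk, adipocyte and muscle transcripts, whose part was not tested.

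edgeR's test of whether the line difference changed from culture to SCID-beige tumors called 6 chains, with fitted log2 changes of -1.81 for Lama5, -0.83 for Lamb2, -4.21 for Lamb3, -3.19 for Lama3, -6.05 for Lama2 and -8.00 for Lama4. The last 2 sizes depend on how 0 counts in D2A1 cultures enter the fit and are not estimates of a fold, and Lama2 was at or under 3 counts in all 6 cultures.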

How the results depend on the processing

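Of 27 log2 differences of a chain that passed in a comparison, 21 passed in all alternatives run and 1 turned its sign (Lamb2 between D2A1 tumors and culture, with the GC offset and the replicate block). Over 1324 alternative values of called and uncalled differences, 15 lost a call, 23 gained one and 69 changed sign (1 of them also losing and 1 gaining a call), the other 1219 keeping their direction and their side of the threshold. The cause was not tested where a call changed. The number of chains called per comparison moved by over 1.5 times only between hosts in D2.1, from 0 to 1 with DESeq2 (Lama2) and without BALB/c tumor 2 (Lama2, adjusted p = 0.0490, 0 to 1 over all libraries left out), and between lines in SCID-beige mice, from 3 to 5 without D2.1 tumor 4 (3 to 5 over all), where Lamb3 passed and Lama1, otherwise under the expression filter, was tested and passed (adjusted p = 0.0215). In other comparisons same-numbered libraries did not all correlate over 0.1 (-0.161 to 0.344 between lines in SCID-beige mice, -0.441 to 0.169 between hosts and -0.135 to 0.0411 between D2.1 tumors and culture). There the replicate block called Lamc1 lower in D2.1 of SCID-beige mice (-0.44, adjusted p = 0.0355) and lost Lamb1 between D2.1 tumors and culture (0.42, adjusted p = 0.0936). It took the genes called between hosts from 133 to 14 in D2.1 and from 170 to 0 in D2A1. Where all same-numbered libraries correlated over 0.1, the block changed no call beyond those given with the results. Calls over all genes between hosts also moved with DESeq2 (588 in D2.1, 517 in D2A1), without a filter (275 in D2.1), in 1 fit of all 18 tumors (261 in D2.1), without BALB/c tumors 1 and 4 of D2.1 (11), without SCID-beige tumors 4 and 5 of D2.1 (36) and with GC offset and block together (7 in D2.1, 0 in D2A1). For the line difference between hosts, 3 genes became 105 with DESeq2, 6 with its size factors, 7 without a filter, 5 with the GC offset and 0 without the BALB/c tumors.

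With the replicate block, the sign turned to -0.24 for Lama2 between lines in BALB/c mice, 0.022 for Lamb1 between hosts in D2.1, 0.081 for Lama2 between hosts in D2A1 and to -0.20 for Lamb3 and -0.042 for Lamc1 between D2.1 tumors and culture. With GC offset and block together, the sign turned to -0.17 for Lama2 and -0.066 for Lamb3 between lines in BALB/c mice, 0.0028 for Lama2 between hosts in D2A1, -0.54 for Lamb3 and -0.28 for Lamc1 between D2.1 tumors and culture and to -0.13 for Lamb2 and -0.36 for Lamc1 between D2A1 tumors and culture. Without BALB/c tumors 1 and 4 of D2.1, the sign turned to -1.29 for Lama2, -0.38 for Lama3 and -2.07 for Lamb3 between lines in BALB/c mice, -0.17 for Lama3 and -1.93 for Lamb3 between hosts in D2.1 and to -0.28 for Lama3 and -0.75 for Lamb3 of the line difference between hosts. Without SCID-beige tumors 4 and 5 of D2.1, the sign turned to 0.042 for Lamb1 between hosts in D2.1 and to -0.14 for Lamb3 and -0.032 for Lamc1 between D2.1 tumors and culture. In 1 fit of all 18 tumors, the sign turned to -0.00095 for Lamc1 between hosts in D2.1. With the GC offset, the sign turned to -0.019 for Lamc1 between hosts in D2.1 and to -0.15 for Lamb3 and -0.16 for Lamc1 between D2.1 tumors and culture.

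With 1 library left out, uncalled log2 differences that spanned 0 were as follows. Lama2 ran from -0.45 to 0.34, Lama3 from -0.24 to 0.74 and Lamb3 from -0.35 to 0.98 between lines in BALB/c mice. Lama3 ran from -0.40 to 0.26 and Lamb1 from -0.0093 to 0.18 between lines in SCID-beige mice. Lama3 ran from -0.049 to 0.56, Lama5 from -0.30 to 0.056, Lamb1 from -0.093 to 0.028, Lamb3 from -0.25 to 1.24 and Lamc1 from -0.11 to 0.13 between hosts in D2.1. Lama1 ran from -0.085 to 0.93, Lama2 from -0.27 to 0.086, Lama3 from -0.58 to 0.45 and Lama5 from -0.085 to 0.18 between hosts in D2A1. Lamb3 ran from -0.33 to 0.70 and Lamc1 from -0.068 to 0.20 between D2.1 tumors and culture. Lama3 ran from -0.17 to 0.85 and Lamb1 from -0.012 to 0.17 of the line difference between hosts.

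Mean shares of Lama4, Lama5, Lamb1 and Lamb2 stayed within 1 SD in 121 of 168 alternatives and moved further in 47, none of which left out a library. With counts in place of FPKM, Lama4 held 73.8% and 71.0% of the α chains in D2.1 tumors of BALB/c and SCID-beige mice, and 11.1% and 12.2% in D2A1 tumors. With deposited FPKM, the Lamb2 share of β chains went from 19.4% to 33.7% for D2.1 in BALB/c hosts. Lama1, Lama2, Lama3 and Lamb3 rested on few reads, so differences in them were the least detectable at this depth.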
